A study of Bos taurus with 8 samples.

Results

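The genes of store-operated calcium entry were followed in bovine trophectoderm outgrowths, cultures that spread from the outer epithelium of the blastocyst. The members are the channel genes ORAI1, ORAI2 and ORAI3 and the sensor genes STIM1 and STIM2, taken by symbol. All 5 were present among the 14970 genes with values, and all 5 passed the filter on low values described below. RNA was sequenced from 8 outgrowths, each grown from 1 in vitro produced embryo that had hatched and was plated on collagen IV on day 10. They were collected on day 35 (n = 4, libraries A to D) or on day 41 (n = 4, libraries E to H), and the groups share every other labelled condition. The columns of the deposited table name the day and not the embryo, so the letters follow the order of the columns. Values are RPKM, reads per kilobase of exon relative to a scaled library size, so that levels can be set side by side between genes.

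Store-operated entry refills the calcium of the endoplasmic reticulum and carries a calcium signal into the cytosol. STIM proteins lie in the membrane of the reticulum and bind calcium in its lumen. When that calcium falls they cluster where the reticulum meets the plasma membrane and open ORAI channels there. The calcium that enters can activate calmodulin, the phosphatase calcineurin and, through it, the NFAT transcription factors. In the placenta, the trophoblast also moves calcium from mother to fetus, in part through other channels such as TRPV6.

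ORAI1 was chosen from the comparison of the days in these same libraries, and its paralogs and sensors were added to stand beside it. The values that chose it were an adjusted p of 0.0938 by limma-trend over 12582 genes, and an FDR of 0.00068 in the authors' deposited table. The day differences of the members are therefore given as a description, with no test. With a threshold of 0.05 on the adjusted p, 0 of the 5 members were called by limma-trend, against 0.0477% of all genes tested in either direction and 0.0159% lower on day 41. In the authors' deposited table ORAI1 alone of the 5 was under an FDR of 0.05, against 1.76% of all genes in either direction and 1.08% lower on day 41.

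The labelled cell type was checked first. All 7 trophoblast markers were present in every library, with KRT8 at 1699.9 RPKM or more, GATA3 at 78.9 RPKM or more and CDX2 at 4.47 RPKM or more. The recovered reads ranged from 106402848 to 158034430 per library. Library A stood apart, with a mean correlation of 0.954 with the others against 0.966 to 0.976, and with 8.46% of its reads in ribosomal protein genes against 4.69% to 5.93%. Library B held the highest summed level of the stromal markers, at 241 RPKM against 2.17 to 35.6 RPKM elsewhere, and of the hypoblast and endoderm markers, at 447 RPKM against 14.0 to 146 RPKM.

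ORAI1 (ENSBTAG00000004457, ARS-UCD1.2 chromosome 17, 53610136 to 53626039, minus strand, 2 exon blocks) encodes the pore-forming subunit of the main store-operated channel. On day 35 it was at 24.5 RPKM in library A, 22.3 in B, 22.03 in C and 19.6 in D. On day 41 it was at 13.4 RPKM in E, 14.5 in F, 13.5 in G and 11.4 in H. The days did not overlap: the lowest day 35 library, D, lay above the highest day 41 library, F. The mean was 22.1 ± 2.04 RPKM (SD, n = 4) on day 35 and 13.2 ± 1.30 RPKM (SD, n = 4) on day 41, a ratio of 0.596. The log2 fold change on the log2(RPKM + 1) scale was -0.71 (SE 0.10), and the authors' deposited table gives -0.75. ORAI1 rested on 4072 to 8281 reads per library. Higher and lower values were counted by the sign of the log2 fold change, here and in the lists below. Of 7 tested trophoblast markers, 6 had lower values on day 41 and GATA3 a higher one. CDH1, counted as lower, was level, at 321 ± 9.09 and 321 ± 35.6 RPKM (log2 fold change -0.004). The median log2 fold change was -0.25 (0.01 over all genes), 0 passed and 1 had an unadjusted p under 0.05 by limma-trend. KRT8 was at 2537 ± 269 and 1984 ± 213 RPKM (SD, n = 4 per day). The summed level of the 7 markers was 3784 to 4680 RPKM on day 35 and 2987 to 3827 RPKM on day 41, most of it KRT8 and KRT18. KRT18 was at 1150 ± 193 and 878 ± 132 RPKM, GATA2 at 112 ± 13.8 and 93.9 ± 9.78 RPKM. TFAP2C was at 67.2 ± 7.53 and 62.6 ± 3.99 RPKM, GATA3 at 90.1 ± 10.7 and 93.8 ± 9.19 RPKM, and CDX2 at 8.66 ± 1.10 and 6.95 ± 2.09 RPKM. Of 4 tested markers each, 3 stromal and 3 immune ones had lower values (medians -1.19 and -0.27), as did 3 of 5 endoderm markers (median -0.28), and none passed. ACTA2, a smooth muscle actin, was at 7.93 ± 6.80 and 1.27 ± 1.03 RPKM with the days apart (adjusted p = 0.242 by limma-trend, FDR 0.000987 in the authors' deposited table). CD14, a monocyte receptor, was at 8.58 ± 0.699 and 13.1 ± 1.63 RPKM, also with the days apart (limma-trend adjusted p = 0.179, authors' FDR 0.0399). LCP1, of the same immune list, was lower with the days apart, at 229 ± 91.4 and 158 ± 8.00 RPKM (limma-trend adjusted p = 0.468, authors' FDR 0.549). The days were apart in 8.20% of all genes tested. The part of these markers in the level of ORAI1 was not tested. In bulk RNA, fewer cells that express a gene and less of its RNA per cell cannot be told apart.

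**Figure D1:**
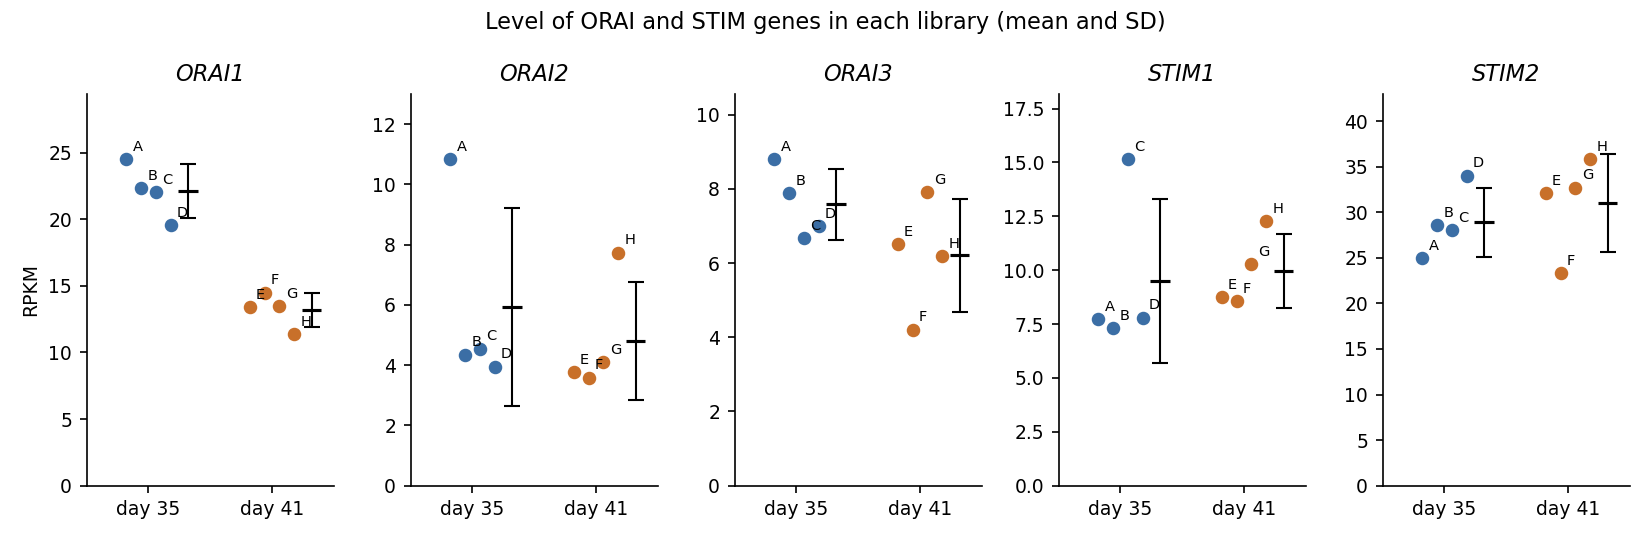
RPKM of each member (vertical axis, starting at 0, with its own scale per gene) in the libraries of day 35 (blue, A to D) and day 41 (orange, E to H), with the mean and SD of each day as a black bar beside the points. The 4 day 41 libraries of ORAI1 lie at 11.4 to 14.5 RPKM, all below the 19.6 to 24.5 RPKM of day 35, while the days overlap in the other 4 genes.

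ORAI2 (ENSBTAG00000012050, chromosome 25, 34599598 to 34611518, minus strand, 4 exon blocks) encodes a channel paralog that can join ORAI1 in mixed channels. It was at 10.8 RPKM in library A, 4.35 in B, 4.55 in C and 3.95 in D, and at 3.77 RPKM in E, 3.58 in F, 4.10 in G and 7.73 in H. Library A on day 35 and library H on day 41 stood high above the other 3 libraries of their day, which lay close together. The means were 5.92 ± 3.29 and 4.80 ± 1.97 RPKM (SD, n = 4 per day), with a log2 fold change of -0.21 (SE 0.31). Without library A the day 35 mean was 4.28 ± 0.303 RPKM (SD, n = 3) and the log2 fold change turned to 0.08. Library A also held the highest summed level of the 6 immune markers that matched a gene, at 410 RPKM against 176 to 225 RPKM in the other 7. LCP1, an actin-bundling protein, made up 365 RPKM of that sum, CORO1A was between 0.02 and 0.15 RPKM in every library, and the part of these markers in the level of ORAI2 was not tested.

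ORAI3 (ENSBTAG00000002344, chromosome 25, 27087303 to 27092751, plus strand, 2 exon blocks), a paralog found in mammals only, was steadier. It was at 8.81 RPKM in library A, 7.88 in B, 6.67 in C and 7.00 in D, and at 6.51 RPKM in E, 4.21 in F, 7.92 in G and 6.19 in H. Library G exceeded 3 of the 4 day 35 libraries, and F was the lowest of all 8. The means were 7.59 ± 0.959 and 6.21 ± 1.53 RPKM (SD, n = 4 per day), with a log2 fold change of -0.27 (SE 0.17).

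STIM1 (ENSBTAG00000013109, chromosome 15, 51012407 to 51216927, minus strand, 15 exon blocks) encodes the sensor that opens ORAI1 when the store is emptied. It was at 7.73 RPKM in library A, 7.30 in B, 15.2 in C and 7.79 in D, and at 8.75 RPKM in E, 8.55 in F, 10.3 in G and 12.3 in H. Library C held nearly all of the day 35 spread, and without it every day 41 library lay above every day 35 library. The means were 9.50 ± 3.79 and 9.96 ± 1.72 RPKM (SD, n = 4 per day), and the day 35 mean without library C was 7.61 ± 0.268 RPKM (SD, n = 3). The log2 fold change was 0.11 (SE 0.22) with all libraries, 0.34 without C, and -0.19 in limma-trend with array weights.

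STIM2 (ENSBTAG00000019353, chromosome 6, 46271030 to 46455918, plus strand, 12 exon blocks) encodes the sensor that responds to smaller falls in stored calcium and helps to set its resting level. It was at 25.0 RPKM in library A, 28.6 in B, 28.0 in C and 34.0 in D, and at 32.1 RPKM in E, 23.3 in F, 32.7 in G and 35.9 in H. The days overlapped, with the lowest and the highest value both on day 41. The means were 28.9 ± 3.77 and 31.0 ± 5.38 RPKM (SD, n = 4 per day), with a log2 fold change of 0.09 (SE 0.15).

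So the days were apart in 1 of the 5 members, ORAI1, which was chosen for it, against 8.20% of all genes tested and 3.94% for genes lower on day 41. The authors' deposited table gives log2 fold changes of -0.17 for ORAI2, -0.29 for ORAI3, 0.26 for STIM1 and 0.11 for STIM2, the same signs as limma-trend on the same libraries. Around its day means ORAI1 had an SD of 0.13 on the log2 scale, larger than in 21.8% of the genes tested. That SD was 0.26 for ORAI3, 0.22 for STIM2, 0.36 for STIM1 and 0.52 for ORAI2, the last larger than in 92.4% of the genes tested. The adjusted p and FDR that chose ORAI1 favour a small SD within days, so its rank is not separate from that choice.

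**Figure D2:**
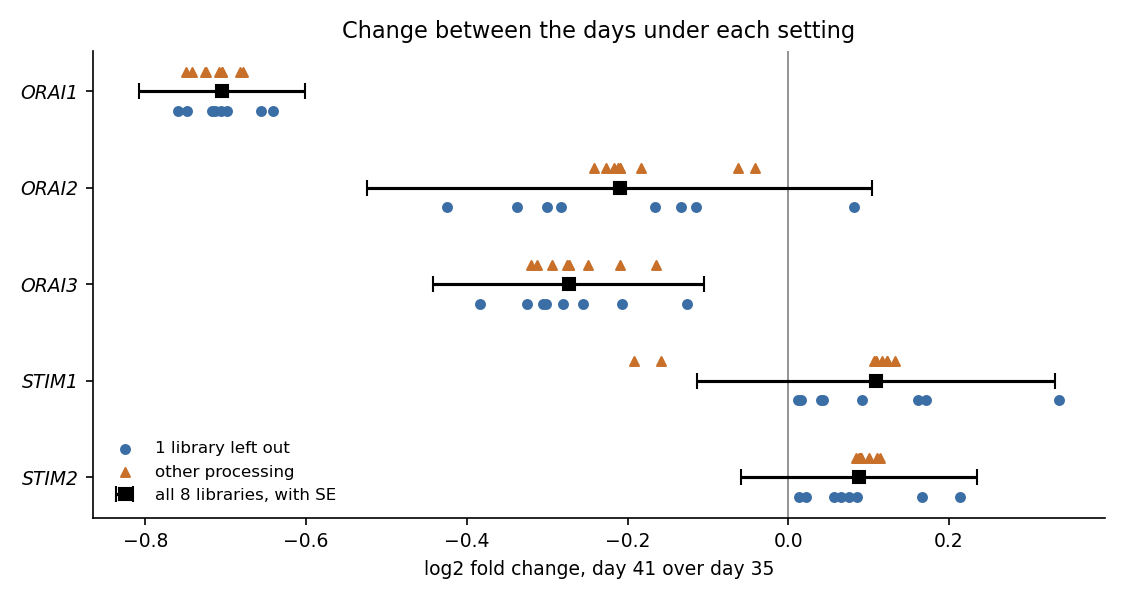
Log2 fold change of day 41 over day 35 for each member (horizontal axis), with all 8 libraries (black square, bar for the SE), with 1 library left out (blue circles) and under the other 9 processing settings (orange triangles). ORAI1 stays between -0.76 and -0.64 throughout, ORAI2 passes 0 when library A is left out, and STIM1 passes 0 under array weights and quality weights.

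Per length of exon, STIM2 was the most abundant of the 5 genes. Over the 8 libraries the means were 29.9 ± 4.44 RPKM for STIM2, 17.6 ± 5.03 for ORAI1, 9.73 ± 2.73 for STIM1, 6.90 ± 1.39 for ORAI3 and 5.36 ± 2.58 for ORAI2 (SD, n = 8). STIM2 exceeded ORAI1 in 8 of 8 libraries, by a mean of 0.80 on the log2 scale (SD 0.56). An exact paired sign-flip permutation test, two-sided and adjusted over the 4 neighbouring pairs, gave an adjusted p of 0.0313. The pairs and their direction were taken from the order of the means in these same libraries. The p covers the spread between libraries, not a bias between genes that all libraries share. ORAI1 exceeded STIM1 in 7 of 8 libraries, by a mean of 0.85 (SD 0.63, exact permutation, adjusted p = 0.0313). The exception was library H, with 11.4 RPKM of ORAI1 and 12.3 RPKM of STIM1. Both means pool days between which ORAI1, chosen for its day difference, was not level. Within the days, STIM2 exceeded ORAI1 by 0.38 ± 0.32 on day 35 and 1.22 ± 0.40 on day 41, and ORAI1 exceeded STIM1 by 1.29 ± 0.52 on day 35 and 0.41 ± 0.38 on day 41 (log2 differences, SD, n = 4 per day). Neither of the lower pairs passed. STIM1 lay above ORAI3 in 6 of 8 libraries (mean difference 0.48, SD 0.53) and ORAI3 above ORAI2 in 6 of 8 (mean difference 0.45, SD 0.52), each with an adjusted p of 0.0625 by the exact permutation test. With 7 libraries the smallest p the test can give is 0.0156 before adjustment, and the calls of the upper pairs were lost (adjusted p = 0.0625) when any of B, C, D, E, F or G was left out. Without A, both lower pairs passed (adjusted p = 0.0417 and 0.0469).

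ORAI1 made up most of the summed channel level in every library except H. Its share of the summed RPKM of ORAI1, ORAI2 and ORAI3 was 55.5% in library A, 64.6% in B, 66.3% in C and 64.1% in D. On day 41 it was 56.5% in E, 65.0% in F, 52.9% in G and 45.0% in H. The days overlapped in this share, with means of 62.6 ± 4.83% and 54.9 ± 8.31% (SD, n = 4 per day). In library H, ORAI2 supplied 30.5% of the sum, and in library A 24.5%, against 12.6% to 16.1% elsewhere. STIM2 supplied 75.6 ± 7.42% of the summed sensor level on day 35 and 75.6 ± 2.33% on day 41 (SD, n = 4 per day), with its lowest share, 64.9%, in library C.

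The summed channel level was 44.2 RPKM in library A, 34.6 in B, 33.2 in C and 30.5 in D. On day 41 it was 23.7 RPKM in E, 22.3 in F, 25.5 in G and 25.3 in H, below every day 35 library. The summed sensor level did not separate the days, with 32.7 to 43.2 RPKM on day 35 and 31.8 to 48.1 RPKM on day 41. The ratio of summed channels to summed sensors was 1.35 in A, 0.963 in B, 0.770 in C and 0.730 in D. It was 0.580 in E, 0.700 in F, 0.594 in G and 0.526 in H, again below every day 35 library, though D and F were close. Both sums contain the day difference for which ORAI1 was chosen and are no further evidence of it.

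**Figure D3:**
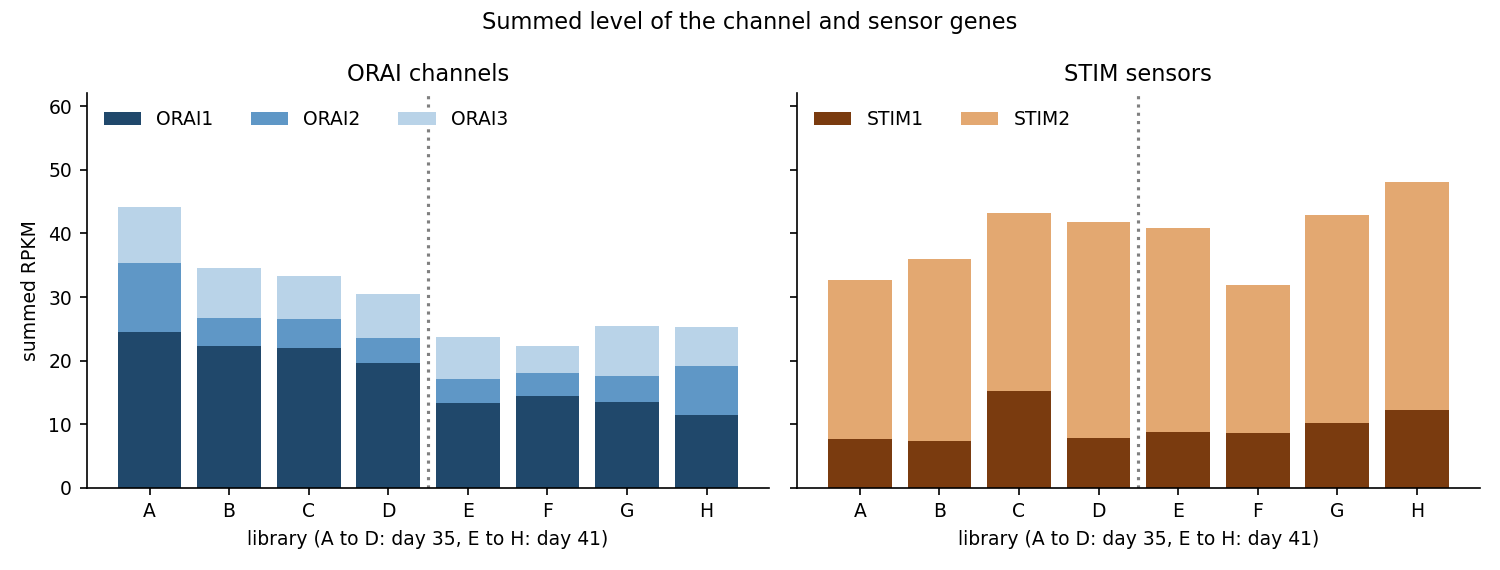
Summed RPKM of the channel genes (left) and of the sensor genes (right) in each library, stacked by gene, with a dotted line between day 35 (A to D) and day 41 (E to H). The channel bars reach 30.5 to 44.2 RPKM on day 35 and 22.3 to 25.5 RPKM on day 41, and the sensor bars overlap between the days.

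At the extremes of each day, ORAI1 and STIM2 went in opposite directions. Library D had the least ORAI1 and the most STIM2 of day 35, and library A the reverse. On day 41 library H had the least ORAI1 and the most STIM2, and library F the reverse. The middle libraries did not follow this order, since B exceeded C and G exceeded E in both genes, by small margins. Pearson's r between the deviations of the 2 genes from their day means was -0.87 over 8 libraries. It was -0.94 to -0.83 with any 1 library left out and -0.99 without F and H, the libraries farthest from the median of STIM2. F and H are also the extremes of day 41. Without them that day kept only E and G, at 13.4 and 13.5 RPKM of ORAI1 and 32.1 and 32.7 RPKM of STIM2. The -0.99 thus rested almost wholly on the day 35 libraries and does not show a closer relation. The r of ORAI1 and STIM2 describes 1 of 10 pairs of members, in values that share libraries and scaling. The other 9 pairs lay between -0.30 (ORAI1 and STIM1) and 0.45 (ORAI3 and STIM2).

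**Figure D4:**
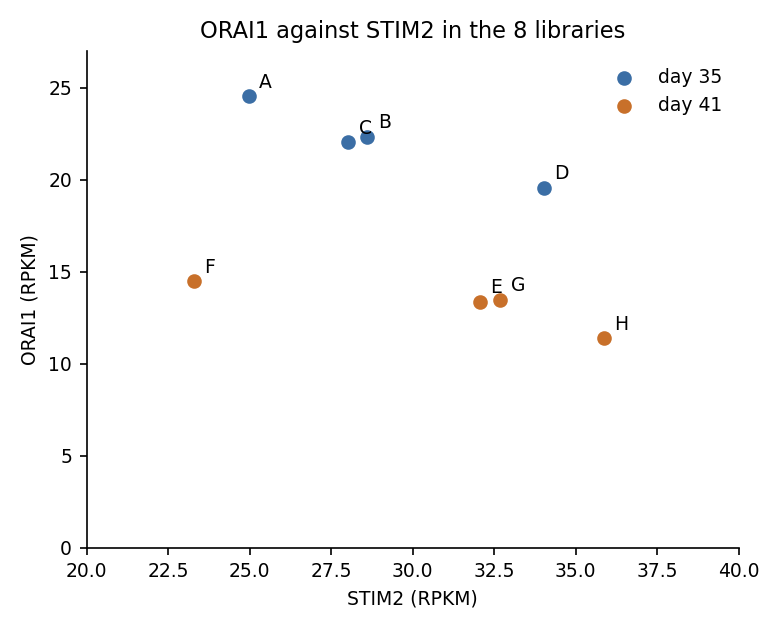
ORAI1 (vertical axis, RPKM) against STIM2 (horizontal axis, RPKM, from 20 to 40) in the libraries of day 35 (blue) and day 41 (orange). In each day the outermost points are at the upper left (A, F) and the lower right (D, H), and the day 41 points lie below those of day 35.

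Genes with a pattern like that of ORAI1 were sought among 10499 named genes with a mean of at least 1 RPKM, by Pearson's r of log2(RPKM + 1) over the 8 libraries. The most alike were SH3BGRL3 (r = 0.98), the peptide hormone ADM2 (0.98), the aminoacyl-tRNA synthetases MARS1 (0.98) and CARS1 (0.97), and the calcium-binding protein EFHD2 (0.97). All 5 had lower means on day 41, for example EFHD2 at 258 ± 17.1 and 187 ± 12.6 RPKM and MARS1 at 26.2 ± 2.39 and 17.6 ± 1.04 RPKM (SD, n = 4 per day). With the day means removed, other genes came first: ANKRD13D (0.99), the glucagon receptor GCGR (0.98), SIGIRR (0.98), HRAS (0.98) and MFSD5 (0.98). By levels ORAI3 ranked 1892 (r = 0.50), ORAI2 3571 (0.23), STIM1 6675 (-0.26) and STIM2 8274 (-0.47). The days of ORAI1 do not overlap, so r over levels carries the day difference, and the genes named were picked for the highest r of 10499.

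The rest of the calcium machinery was followed in 7 lists with 96 symbols, of which 82 matched a gene and 64 could be tested between the days. By limma-trend with Benjamini-Hochberg adjustment over all genes, 0 of the 64 passed. At an unadjusted p under 0.05 there were 7, with 4 higher and 3 lower on day 41, or 10.9% of the 64 against 11.7% of all genes tested. The median log2 fold change of the 64 was 0.05, and 0.01 over all genes. With quality weights in limma-voom, 3 passed (5.18% of all genes did), and with array weights in limma-trend 6 (8.30% of all genes). Of the 82, 2 had an FDR under 0.05 in the authors' deposited table, where 1.76% of all genes did.

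Among the regulators of STIM and ORAI proteins, 0 of 11 tested genes passed and 0 had an unadjusted p under 0.05 (6 with higher values, 5 with lower, median 0.01). SURF4, a cargo receptor of the endoplasmic reticulum, was at 81.6 ± 16.1 and 70.6 ± 4.33 RPKM (SD, n = 4 per day, here and below). The membrane tether ESYT2 was at 32.7 ± 6.64 and 37.6 ± 2.06 RPKM. Of the fits run, only limma-trend with array weights called SURF4, as lower (adjusted p = 0.0490).

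In the list of store release, refill and buffering, 0 of 10 tested genes passed (4 with higher values, 6 with lower, median -0.02). CALR, the calcium-binding chaperone calreticulin, had the smallest p. It was at 1063 RPKM in library A, 1013 in B, 930 in C and 843 in D, and at 771 RPKM in E, 680 in F, 797 in G and 722 in H. The days did not overlap (log2 fold change -0.37, adjusted p = 0.315), and CALR passed with quality weights (adjusted p = 0.0496). Of the release channels, ITPR3 was at 36.4 ± 12.1 and 37.2 ± 7.18 RPKM and ITPR2 at 1.62 ± 0.584 and 1.48 ± 0.159 RPKM. ITPR1 was at 0.390 ± 0.456 and 0.234 ± 0.0467 RPKM, and the ryanodine receptors RYR1, RYR2 and RYR3 were at or below 0.109 RPKM in every library.

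Among pumps and exchangers, 0 of 6 tested genes passed and 2 had an unadjusted p under 0.05, both higher (5 with higher values, 1 with lower, median 0.15). ATP2C1, a calcium and manganese pump of the Golgi, was at 33.5 ± 3.08 and 42.7 ± 1.75 RPKM (adjusted p = 0.223, and 0.0424 with quality weights). The plasma membrane pump ATP2B1 was at 29.0 ± 4.15 and 36.9 ± 3.66 RPKM (adjusted p = 0.346). ATP2C2, a Golgi pump known in mammary cells to activate ORAI1 without store emptying, was the most abundant, at 113 ± 17.6 and 118 ± 12.6 RPKM.

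Among other surface channels, 0 of 9 tested genes passed (7 with higher values, 2 with lower, median 0.24). TRPM4, a channel opened by calcium, was at 10.9 ± 1.48 and 11.5 ± 2.75 RPKM, and the stretch-activated PIEZO1 at 29.2 ± 8.67 and 30.3 ± 2.89 RPKM. TRPC1, which can take part in store-operated currents, was at 1.12 ± 0.206 and 1.61 ± 0.300 RPKM (adjusted p = 0.400). TRPV5 was at 3.85 ± 2.22 and 1.89 ± 1.28 RPKM. TRPV6, which falls outside the rule for naming genes and is given because the authors' table calls it, was at 6.87 RPKM in library A, 0.402 in B, 0.148 in C and 0.191 in D. On day 41 it was at 0.481 RPKM in E, 1.82 in F, 1.75 in G and 5.75 in H. A and H were thus its highest libraries, as they were for ORAI2. Its log2 fold change was 0.59 (adjusted p = 0.782), the log2 ratio of its day means was 0.37, and the authors' deposited table gives 2.44 (FDR 0.0434). The log2 fold change was 0.33 without library C and 0.93 without E. Library A alone made the days overlap, and without A, F, G or H TRPV6 did not reach the filter of the test.

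In the list of calmodulin, calcineurin and NFAT factors, 0 of 14 tested genes passed and 3 had an unadjusted p under 0.05 (8 with higher values, 6 with lower, median 0.03). PPP3CC, a catalytic subunit of calcineurin, was at 11.5 ± 0.715 and 9.20 ± 0.587 RPKM (adjusted p = 0.272). NFATC4, an NFAT transcription factor, was at 2.85 RPKM in library A, 1.34 in B, 2.25 in C and 1.55 in D. On day 41 it was at 3.23 RPKM in E, 4.36 in F, 4.76 in G and 6.15 in H, above every day 35 library. Its log2 fold change was 0.91 (SE 0.21, adjusted p = 0.204), and the authors' deposited table gives 1.24 (FDR 0.00278). The days were apart in PPP3CC too.

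Neither of the remaining lists held a gene with an unadjusted p under 0.05. Of 8 genes in the mitochondrial uniporter list, which also holds LETM1, 3 had higher and 5 lower values (median -0.06). MCU, the pore of the uniporter, was at 55.0 ± 8.91 and 48.8 ± 5.06 RPKM. Of 6 tested genes of phospholipase C and its G proteins, which start the release of stored calcium, 4 had higher and 2 lower values (median 0.11). GNA11 was at 32.5 ± 3.78 and 37.1 ± 2.38 RPKM and PLCG2 at 2.42 ± 0.612 and 1.72 ± 0.231 RPKM (adjusted p = 0.439).

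**Figure D5:**
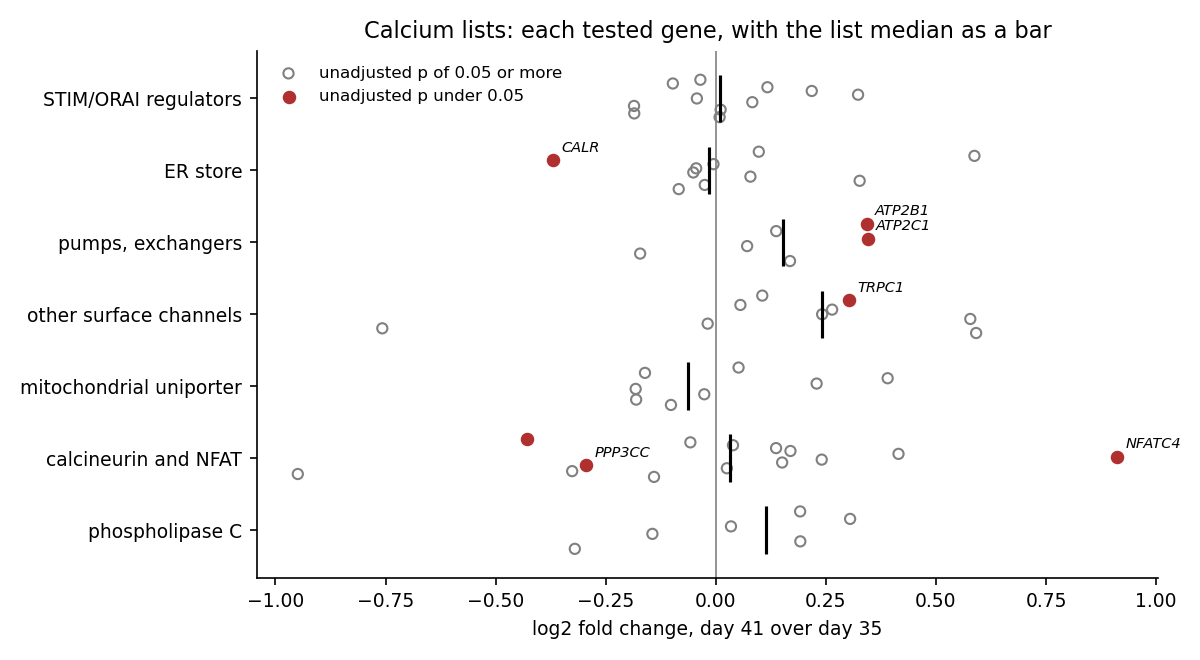
Log2 fold change of day 41 over day 35 (horizontal axis) of each tested gene in the 7 calcium lists (rows), with the list median as a black bar and genes with an unadjusted p under 0.05 filled, most of them with their names. The 7 filled points, none of which passed after adjustment, fall on both sides of 0, among them CALR at -0.37 and NFATC4 at 0.91.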

How the data were processed

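RNA of 8 outgrowths was sequenced by the submitters. Per the submitters' processing notes, the tools included HISAT2, featureCounts, FastQC and edgeR and the build was ARS-UCD1.2, and versions and roles are not given. The deposited table holds RPKM for each library, with exon length, computed by the authors. It also holds the authors' comparison of the days: log2 fold changes, a likelihood ratio score that the authors give per gene, and p-values and FDR of the authors. Whether reads were counted by strand is not given in the sources used here.

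Each RPKM times its exon length came out as a whole number of equal steps in its library (within 0.01 for 100% of values), and those steps were taken as reads. They are amplified reads with no molecular identifiers. The SDs are spreads between outgrowths, and those over both days also hold the day differences. The SEs of log2 fold changes are those of limma-trend, which draws each gene's variance towards a trend over all genes. Each outgrowth was grown from 1 embryo, and the 8 libraries were treated as independent. The titles of the days share 1 number, and whether it marks the same embryo was not settled here. The days were compared by limma-trend (limma 3.58.1, R 4.3.3) on log2(RPKM + 1), over genes with at least 0.5 RPKM in at least 4 libraries, two-sided, adjusted by Benjamini and Hochberg. Adding 1 understates the change of low genes. The fit was tested on simulated data. Levels were compared within libraries by exact sign-flip tests (SciPy 1.17.1). The members and lists were chosen with earlier results of these data known. Alternatives covered scaling, filter, pseudocount, weights, limma-voom on recovered reads and each library left out. Named in each list were the 3 genes with the smallest p and the 2 most abundant, of which some are not reported here. Release channels of the store, TRPV6 and the neighbours of ORAI1 were named outside that rule, after their values were seen.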

Additional observations from a re-analysis of the deposited data

Results flagged for a closer look

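Of 10 sets of 4 libraries (5 genes on 2 days), 3 held a library far from the other 3 by Dixon's test. Chance gives about 1 in 20, and over all genes tested in these libraries 8.79% of such sets met the same test. ORAI2 was at 10.8 RPKM in library A of day 35, 2.53 times the mean of the other 3 (3.95 to 4.55 RPKM). ORAI2 was at 7.73 RPKM in library H of day 41, 2.02 times the mean of the other 3 (3.58 to 4.10 RPKM). STIM1 was at 15.2 RPKM in library C of day 35, 1.99 times the mean of the other 3 (7.30 to 7.79 RPKM). Each of these values rested on 2455 reads or more.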

How the results depend on the processing

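The log2 fold change of ORAI1 was -0.75 to -0.68 over 9 other settings and -0.76 to -0.64 with any 1 library left out. With 1 library left out those of the other members were -0.42 (without H) to 0.08 (without A) for ORAI2, -0.38 to -0.13 for ORAI3, 0.01 to 0.34 (without C) for STIM1 and 0.01 to 0.21 for STIM2. The count of genes called between the days was 6. It was 3 with no filter, 3 with a pseudocount of 0.1, 2 with limma-voom, 652 with quality weights and 1044 with array weights, and 0 to 43 with 1 library left out. It was 43 without A and 0 without each of F, E, D, C and B (unadjusted p under 0.05 in 1143, 1044, 1693, 1111 and 1030 genes). The cause was not tested. The adjusted p of ORAI1, by which it was chosen and which is therefore no test, was 0.0482 without A and 0.116 to 0.342 without any 1 of the others, 0.0130 with quality weights and 0.00821 with array weights. In the calcium lists 0 genes were called, against 3 with quality weights and 6 with array weights. With 1 library left out, the adjusted p of the level differences was 0.0313 to 0.0625 for STIM2 over ORAI1 and for ORAI1 over STIM1, 0.0417 to 0.125 for STIM1 over ORAI3, and 0.0469 to 0.125 for ORAI3 over ORAI2. The share of ORAI1 among the channels was 61.4% to 65.0% on day 35 and 51.5% to 58.1% on day 41 with 1 library left out. No paired analysis was possible because the titles of the 2 days share only 1 number and the columns carry none.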

Other observations

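The genes next to ORAI1 on chromosome 17 were looked at after the values of ORAI1 were known. MORN3 (ENSBTAG00000004458, 53594452 to 53605589, plus strand) ends 4546 bases from the end of ORAI1, and the genes point towards each other. MORN3 was at 8.81 RPKM in library A, 5.90 in B, 6.69 in C and 6.25 in D, and at 3.50 RPKM in E, 3.51 in F, 2.42 in G and 2.62 in H. The days did not overlap (log2 fold change -0.98, SE 0.15, limma-trend adjusted p = 0.105), and the authors' deposited table gives -1.20 (FDR 0.015).

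ENSBTAG00000006484 (53609590 to 53614703, 411 exon bases), which has no symbol, lies on the strand of ORAI1 and runs into its span. Its longer exon (53609590 to 53609974) begins 161 bases past the last base of ORAI1, and no exon bases are shared. It was at 5.11 RPKM in library A, 3.89 in B, 3.94 in C and 3.12 in D, and at 2.32 RPKM in E, 2.29 in F, 2.31 in G and 2.30 in H (log2 fold change -0.59, limma-trend adjusted p = 0.200). For this gene the authors' deposited table gives -0.80 (FDR 0.505). The next gene on each side overlapped between the days: TMEM120B was at 5.69 ± 0.588 and 5.42 ± 0.643 RPKM and KDM2B at 4.03 ± 1.15 and 5.09 ± 0.389 RPKM (SD, n = 4 per day). Whether reads pass from one of these genes into the next was not tested.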
